A study of Mus musculus with 16 samples.

Results

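The genes described here were the collagen genes of the mouse genome other than those of the dentin and cartilage sets. They were all gene symbols of the form Col, number, a, number in the deposited count tables, without Col1a1, Col1a2, Col2a1, Col9a1, Col9a2, Col9a3 and Col11a2. The name pattern matched 43 symbols among 23337 genes, and 36 were left once those 7 were taken out. The rule used no measured value. Of the 36 genes, 35 reached 10 counts in at least 1 library, and Col10a1 did not.

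RNA-seq of poly(A) RNA had been run on mouse molar germs, the embryonic primordia of the first molar, in 8 libraries labelled upper and 8 labelled lower. The labels place them at 8 stages, every 0.5 days between the labelled days ED14.5 and ED18.0, with 1 library per jaw and stage. Every library was labelled as wild-type CD1, an outbred stock, and as the left and right germs of a single male embryo pooled together, with both jaws of a stage taken from that embryo. A whole germ holds epithelium, mesenchyme and vessels, and in such bulk tissue fewer cells of a type and less RNA per cell cannot be told apart.

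Collagens are extracellular matrix proteins built of chains that wind into a triple helix, and different genes encode the chains of one protein. Fibrillar collagens form the fibrils of connective tissue, FACIT collagens sit on the surface of fibrils, network collagens make up basement membranes, and other members form beaded filaments, anchor epithelia or span the cell membrane. In a tooth germ a basement membrane lies between the dental epithelium and the dental mesenchyme, the tissues whose exchange of signals shapes the crown.

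The libraries held 33146758 to 38584429 gene counts in those labelled upper and 35918529 to 44565205 in those labelled lower. The labels could not be taken at face value. Pou3f3, a transcription factor gene active in the maxillary part of the mouse first arch, was at 109.5 to 131.5 CPM (counts scaled to one library total) in the labelled upper libraries of individuals 2, 4, 6 and 8 but at 6.45 to 10.1 CPM in those of individuals 1, 3, 5 and 7. It alternated likewise in labelled lower, where individuals 2, 4, 6 and 8 had 60.1 to 86.2 CPM while 1, 3, 5 and 7 had 4.45 to 5.46 CPM. Xist, the RNA of the inactive X chromosome, was at 1499 to 1831 CPM in labelled upper and 431.8 to 1928 CPM in labelled lower libraries, although the embryos were labelled male, and 3 genes of the Y chromosome, Uty, Kdm5d and Eif2s3y, were at 0 counts in all 16 libraries. Groups are therefore called labelled upper and labelled lower throughout, and each edgeR comparison of the collagens is also given for individuals 1, 3, 5 and 7 alone and 2, 4, 6 and 8 alone. The run identifiers put the libraries of each label on a flow cell of their own, so flow cell and tooth label cannot be told apart. With 1 library per label and stage, the tests measure the scatter of single libraries around a stage curve.

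Col4a5 and Col4a6, which encode chains of the same basement membrane trimer, started on opposite strands of chromosome X with 1308 bases between their annotated starts, and they were the collagens whose difference in stage slope between the labels passed the test described further on. Their upstream sequences are shown because they lie in the stretch between the starts of both genes. They were taken from RefSeq (GRCm38.p6), 5′ to 3′ on the strand of each gene and without annotated exon, at chrX:141475169-141475384 on the plus strand for Col4a5 and chrX:141474077-141474326 on the minus strand for Col4a6. Capitals mark matches, on either strand, to the letters TATAAA, to CCAAT or to GGGCGG, which are called the TATA box, the CCAAT box and the GC box.
Col4a5: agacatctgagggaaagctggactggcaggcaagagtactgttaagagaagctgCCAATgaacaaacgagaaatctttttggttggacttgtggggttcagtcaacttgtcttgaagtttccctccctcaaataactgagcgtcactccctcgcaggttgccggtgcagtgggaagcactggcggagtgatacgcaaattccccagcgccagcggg
Col4a6: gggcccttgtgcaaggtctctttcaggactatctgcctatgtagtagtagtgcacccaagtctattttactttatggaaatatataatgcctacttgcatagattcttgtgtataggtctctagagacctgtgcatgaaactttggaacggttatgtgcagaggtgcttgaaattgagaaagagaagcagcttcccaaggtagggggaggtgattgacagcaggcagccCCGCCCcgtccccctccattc
The 216 bases before Col4a5 held 1 CCAAT box and neither of the other motifs, at 52.3% GC. The 250 bases before Col4a6 held 1 GC box, which reads as its reverse complement on the printed strand, and neither of the other motifs, at 47.6% GC. Among 32851 RefSeq promoters of 250 bases, 12.4% held a TATA box, 33.8% a CCAAT box and 32.7% a GC box. Of the 31 collagen genes with a sequence in that table, 4 held a TATA box, 11 a CCAAT box and 18 a GC box, before exon bases were removed. Col4a5 was among those 18, because its full 250 bases, exon bases included, held a GC box that the printed 216 bases lack. A match describes letters in this window and no more.

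Together the 36 genes took 0.95% to 1.32% of the gene counts in labelled upper and 1.01% to 1.28% in labelled lower libraries. Levels between genes were compared per kilobase of annotated exon. Col3a1, the type III chain of fibrils in soft connective tissue, stood first, with a mean of 308 CPM per kb in labelled upper and 317.4 CPM per kb in labelled lower libraries. Next came Col4a1, a main chain of basement membranes, at 107.3 CPM per kb in labelled upper and 131.8 CPM per kb in labelled lower libraries. Col6a1, a chain of beaded filaments, was at 111.4 CPM per kb in labelled upper and 118.7 CPM per kb in labelled lower libraries. The libraries of Col4a1 and Col6a1 overlap on this scale in the plot of levels, so their order was within the spread of libraries. At the low end Col4a4, a chain of kidney basement membranes, averaged 0.0347 CPM per kb in labelled upper and 0.0355 CPM per kb in labelled lower libraries. Its partner Col4a3 had 0 to 9 counts in labelled upper and 1 to 15 in labelled lower libraries. Col10a1, the collagen of hypertrophic cartilage, had 0 to 8 counts in labelled upper and 2 to 9 in labelled lower libraries, and was taken as not detected. Col4a3 and Col10a1 did not pass the filter for testing, at least 2 libraries at 0.269 CPM, so 34 of the 36 were tested among 16287 genes.

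**Figure D1:**
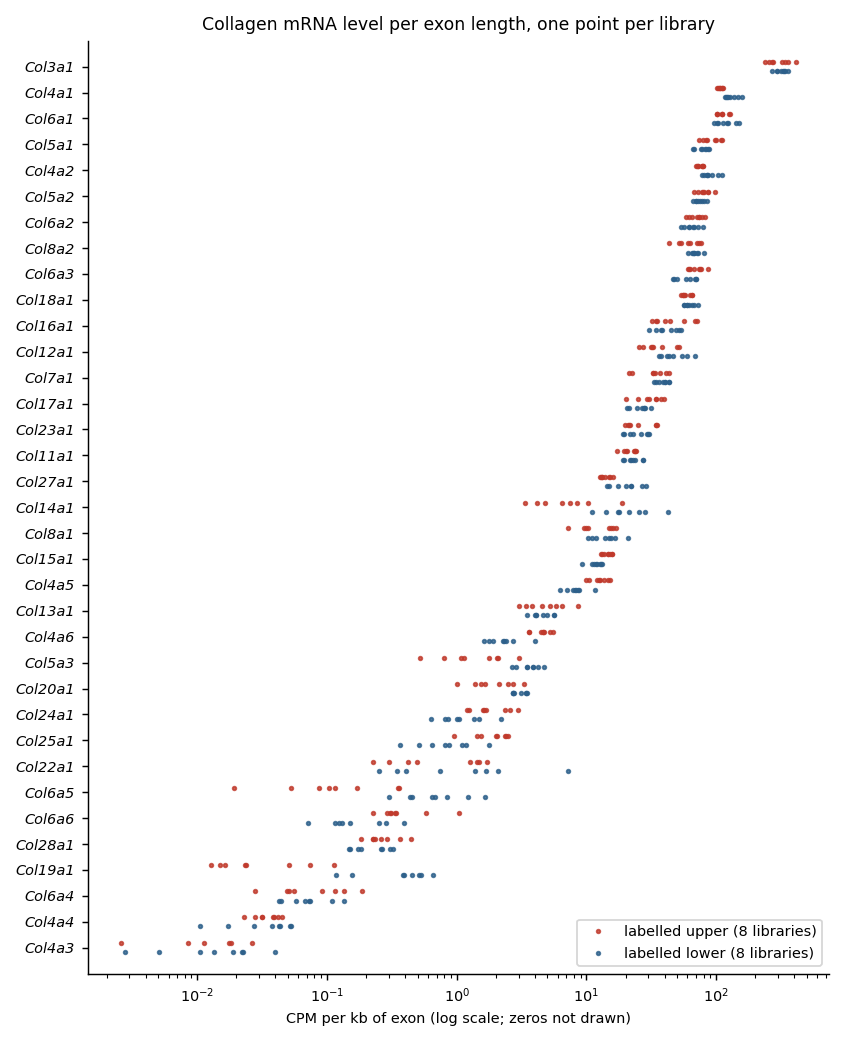
Level of the 35 detected collagen genes in CPM per kb of annotated exon, on a log axis, with 1 point per library (red, 8 labelled upper; blue, 8 labelled lower) and zeros not drawn. Col3a1 lies at the top, with means of 308 CPM per kb in labelled upper and 317.4 CPM per kb in labelled lower libraries, and Col4a3 at the bottom.

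The first comparison, labelled upper against labelled lower first molar at the same labelled stage, asked which genes differ between serial teeth. Libraries of one labelled stage did not match in markers of embryonic red cells. Of 6 erythroid markers, 4 were higher in labelled upper and 0 lower, with a median log2 difference of 2.34. Hbb-y is an embryonic globin gene of a family whose similar members could share reads. It was at 3.03 to 102.2 CPM in labelled upper libraries, highest in the first 2 stages. In labelled lower libraries it was at 0.106 to 0.910 CPM, with 0.779 CPM at ED14.5. Of the other markers in the same comparison, 6 of 9 of dental mesenchyme were higher and 0 lower in labelled upper, with a median of 0.41. Of 10 dental epithelium markers 3 were higher and 4 lower, with a median of −0.10. Of 7 macrophage markers 5 were lower and 0 higher, with a median of −0.60. Their part in the collagen differences was not tested. By edgeR's quasi-likelihood test (Benjamini-Hochberg adjusted over all genes tested), 16 of the 34 tested collagens were past the threshold of 0.05, 6 higher and 10 lower in labelled upper. Over all genes tested, 36.2% were past it, with 18.1% higher and 18.1% lower in labelled upper, and the median log2 difference was −0.03 for the collagens and 0.01 for all genes. Without overlap between the libraries of both labels were Col19a1 and Col4a1, 2 of 34, beside 6.4% of all genes tested. Individuals 1, 3, 5 and 7 alone gave 14 calls, 5 higher and 9 lower in labelled upper, beside 20.2% of all genes tested. Individuals 2, 4, 6 and 8 alone gave 17, 7 higher and 10 lower, beside 19.5% of all genes. The labels give both jaws of a stage as one embryo. With the embryo as a block, 20 were called, 10 in each direction, beside 37.6% of all genes.

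**Figure D2:**
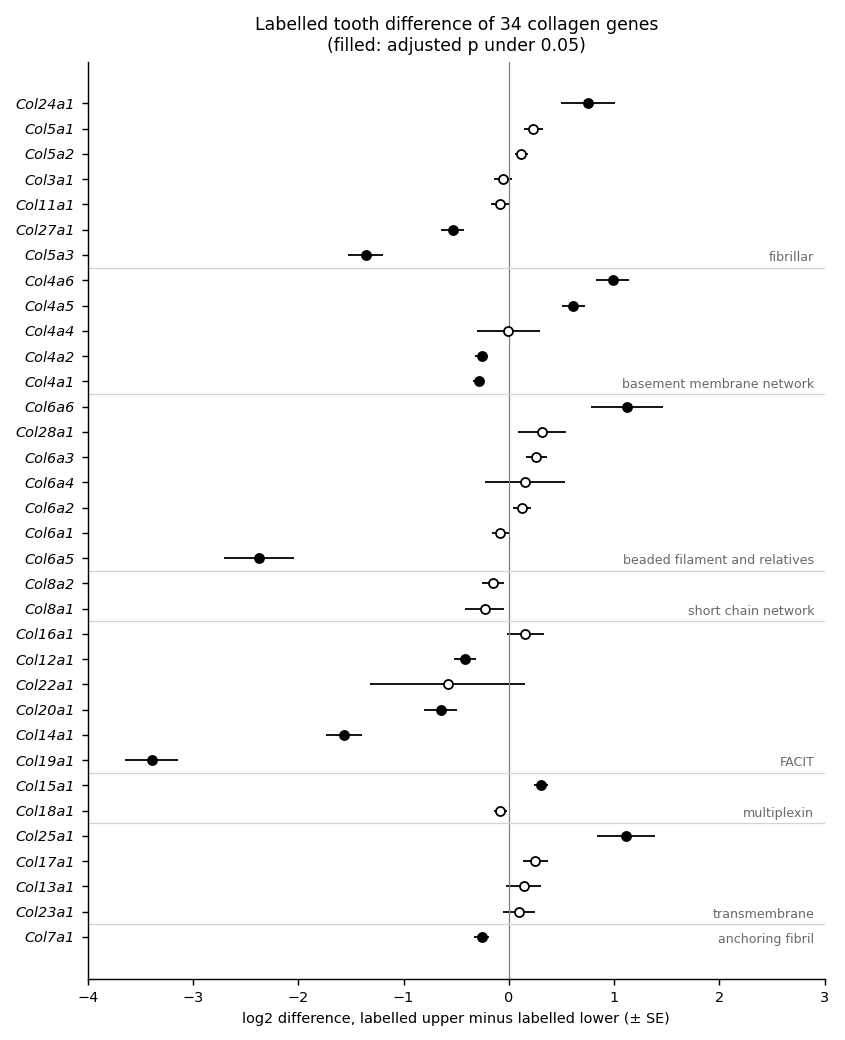
Log2 difference, labelled upper minus labelled lower, of 34 collagen genes with its standard error, grouped by structural class. Filled points had an edgeR adjusted p under 0.05 (16 genes); Col19a1 lies farthest to the left at −3.39 and Col6a6 farthest to the right at 1.12.

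The FACIT collagens, which decorate fibrils, were the class with the most calls towards labelled lower. Of 6 tested, 4 were lower in labelled upper and none was higher, beside 18.1% of all genes in each direction. Col19a1 was at 0.0882, 0.112, 0.104, 0.163, 0.162, 0.505, 0.354 and 0.784 CPM in labelled upper and at 1.07, 0.808, 2.67, 2.697, 3.54, 3.12, 3.67 and 4.49 CPM in labelled lower libraries, in order of stage. Every labelled upper library lay below every labelled lower one. The log2 difference was −3.39 ± 0.25 (SE; 8 of 8 individuals lower in labelled upper; edgeR adjusted p 4.79e-07), on 3 to 26 counts per labelled upper library. Col14a1, whose protein binds fibrils of type I collagen, was at 23.6, 33.5, 29.1, 52.6, 45.2, 71.4, 59.7 and 131.4 CPM in labelled upper and at 76.9, 122.7, 124.1, 199.5, 99.6, 177.3, 148.2 and 297.2 CPM in labelled lower libraries. The last labelled upper library reached into the labelled lower range, but at each stage labelled upper was the lower (−1.56 ± 0.17, edgeR adjusted p 1.11e-05). Col20a1 (−0.65 ± 0.16) and Col12a1 (−0.42 ± 0.11), a FACIT of dense connective tissue, were also lower in labelled upper, in 8 of 8 individuals each. Col12a1, the FACIT with the highest CPM, ran at 387.3, 491.7 and 785.9 CPM (lowest, median and highest) in labelled upper and 556.1, 683.9 and 1042 CPM in labelled lower libraries. Col16a1 (0.16 ± 0.17) and Col22a1 (−0.58 ± 0.74), a collagen of muscle and tendon junctions, were not past the threshold. Col22a1 ranged from 2.10 to 15.8 CPM in labelled upper and from 2.33 to 65.9 CPM in labelled lower libraries. The summed level of 8 skeletal muscle markers was 3.06 to 52.5 CPM in labelled upper and 4.47 to 24.4 CPM in labelled lower libraries. Col22a1 was highest in the labelled lower library of ED17.5, where the marker sum was 7.42 CPM. The sum was highest in the labelled upper library of ED18.0, where Col22a1 was at 2.78 CPM. The part of these markers in the Col22a1 range was not tested. Col20a1 was not called in individuals 1, 3, 5 and 7 alone (−0.65, adjusted p 0.0655 by edgeR).

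Among the fibrillar collagens, Col5a3, the third chain of type V collagen, was at 5.44, 3.53, 7.39, 7.70, 12.1, 13.9, 14.1 and 20.7 CPM in labelled upper and at 18.2, 19.6, 23.6, 26.3, 23.8, 26.1, 28.9 and 32.2 CPM in labelled lower libraries. Only the last labelled upper library reached the labelled lower range, and the log2 difference was −1.36 ± 0.16 (8 of 8 individuals; edgeR adjusted p 2.95e-05). Col27a1, a cartilage-rich fibrillar collagen, was lower in labelled upper (−0.54 ± 0.11), at 165.4 to 206.8 CPM, against 188.5 to 375.8 CPM in labelled lower. Of 10 cartilage markers tested, 5 were also lower and 2 higher in labelled upper, beside 18.1% of all genes in each direction. The summed level of these markers was 117.8 to 196.4 CPM in labelled upper and 166.2 to 309 CPM in labelled lower libraries. Their part in it was not tested. Col24a1, a minor fibrillar chain, was higher in labelled upper (0.75 ± 0.26, edgeR adjusted p 0.0332), at 9.20 to 22.5 CPM, against 4.87 to 16.8 CPM in labelled lower. Its call was lost when individual 1, 2, 3 or 4 was left out, with log2 differences of 0.59, 0.64, 0.70 and 0.62 and edgeR adjusted p of 0.111, 0.1, 0.0717 and 0.0823, and also in individuals 1, 3, 5 and 7 alone (0.65, adjusted p 0.339).

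The abundant fibrillar genes did not pass the test. Col3a1 had its lowest, median and highest values at 2321, 2932 and 4025 CPM in labelled upper and 2659.7, 3168 and 3508 CPM in labelled lower libraries (−0.06 ± 0.09, edgeR adjusted p 0.661). Col11a1, a chain that helps to start cartilage fibrils, had −0.08 ± 0.09. Col5a1 and Col5a2, the main chains of type V collagen, which starts fibrils of type I, had 0.23 ± 0.09 and 0.12 ± 0.06 and were higher in labelled upper in 8 of 8 individuals each. With the embryo as a block both were called, at 0.22 (edgeR adjusted p 0.00222) for Col5a1 and 0.12 (0.0267) for Col5a2. Col5a1 was also called when individual 3 was left out (0.24, edgeR adjusted p 0.0444) or individual 7 (0.25, 0.0436), and in individuals 2, 4, 6 and 8 alone (0.28, 0.00332).

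The 6 basement membrane genes lie as 3 pairs that start next to each other on opposite strands, and in the more abundant pairs both genes were called in the same direction. Col4a1 and Col4a2, which encode the trimer found in nearly all basement membranes and whose annotated starts on chromosome 8 overlap by 22 bases, were both lower in labelled upper, in 8 of 8 individuals. Col4a1 had its lowest, median and highest values at 757.3, 794.8 and 839.7 CPM in labelled upper and 871.9, 943.9 and 1186 CPM in labelled lower libraries, with no overlap (−0.29 ± 0.05, edgeR adjusted p 0.000693). Col4a2 had 466.7, 496.4 and 524.1 CPM in labelled upper and 518.5, 569 and 738 CPM in labelled lower libraries, with overlap (−0.26 ± 0.06). In individuals 2, 4, 6 and 8 alone Col4a2 was not called (−0.17, edgeR adjusted p 0.084). Of 8 endothelial markers 3 were lower in labelled upper, as were 4 of 8 pericyte and smooth muscle markers, and none of either list was higher, beside 18.1% of all genes in each direction. Their sums were 398 to 466.9 and 384 to 517.7 CPM in labelled upper and 428.2 to 487 and 456.5 to 580.2 CPM in labelled lower libraries. Their part in the Col4a1 and Col4a2 difference was not tested.

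Col4a5 and Col4a6 went the other way. Col4a5 was at 69.9, 66.9, 83.5, 81.1, 101.4, 86.1, 97.7 and 91.2 CPM in labelled upper and at 78.4, 59.3, 57.5, 53.0, 55.0, 55.8, 47.2 and 42.2 CPM in labelled lower libraries. Col4a6 was at 28.9, 28.8, 37.2, 36.9, 44.2, 35.4, 41.7 and 37.1 CPM in labelled upper and at 31.9, 21.8, 19.3, 18.5, 18.1, 15.1, 14.1 and 13.0 CPM in labelled lower libraries. For both genes the first labelled lower library was above its labelled upper partner and the other 7 pairs had labelled upper higher, giving 0.61 ± 0.11 for Col4a5 (edgeR adjusted p 0.000847) and 0.98 ± 0.16 for Col4a6 (0.000253). Col4a3 and Col4a4, 71 bases apart on chromosome 1, were too low for such a reading, and Col4a4 had a log2 difference of 0.00 ± 0.30.

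Among the 7 beaded filament genes 1 was higher and 1 lower in labelled upper, beside 18.1% of all genes in each direction. The rare chains Col6a5 and Col6a6, which in other mouse tissues can stand in for the third chain of type VI collagen, differed in opposite directions. Col6a5 was at 0.4997, 0.811, 0.181, 1.60, 1.08, 3.39, 0.972 and 3.29 CPM in labelled upper and at 2.82, 4.13, 6.03, 4.28, 7.88, 6.42, 15.54 and 11.4 CPM in labelled lower libraries. Labelled upper was lower at every stage (−2.38 ± 0.33, edgeR adjusted p 9.33e-05), with overlap only where 2 late labelled upper libraries passed the first labelled lower one. Col6a6, which lies 27917 bases from Col6a5 on the same strand of chromosome 9, was at 2.79, 3.11, 2.88, 5.32, 2.67, 3.09, 2.06 and 9.47 CPM in labelled upper and at 1.05, 2.29, 0.656, 1.39, 1.14, 3.62, 1.20 and 2.59 CPM in labelled lower libraries. It was higher in labelled upper in 7 of 8 individuals (1.12 ± 0.34, edgeR adjusted p 0.0197). That call was lost without individual 1 (1.10, edgeR adjusted p 0.051), 4 (0.96, 0.0664) or 8 (0.95, 0.0518), and in individuals 2, 4, 6 and 8 alone (1.01, 0.061). The third gene of that row, Col6a4, was at 0.236 to 1.58 CPM in labelled upper and 0.362 to 1.14 CPM in labelled lower libraries (0.16 ± 0.38).

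The abundant type VI chains had −0.08 ± 0.08 for Col6a1, 0.13 ± 0.08 for Col6a2 and 0.26 ± 0.10 for Col6a3 (edgeR adjusted p 0.475, 0.266 and 0.0567). Col6a1 was called in individuals 2, 4, 6 and 8 alone (−0.18, adjusted p 0.0466). Col6a3, the chain with the highest CPM of this class, had its lowest, median and highest values at 723.8, 845.9 and 1037 CPM in labelled upper and 552.4, 728.4 and 839.4 CPM in labelled lower libraries. It was higher in labelled upper in 8 of 8 individuals, was called with the embryo as a block (0.27, edgeR adjusted p 0.000419) and without individual 6 (0.27, 0.0417), and was called in both subsets of individuals (0.32, 0.0108 in 1, 3, 5 and 7; 0.19, 0.0342 in 2, 4, 6 and 8). Col28a1, a beaded filament relative found around nerves in mouse, was at 0.895 to 2.18 CPM in labelled upper and 0.728 to 1.57 CPM in labelled lower libraries (0.31 ± 0.23).

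In the multiplexin, transmembrane, short chain and anchoring fibril classes, Col15a1, Col25a1 and Col7a1 were called. Col15a1, a multiplexin of basement membrane zones, was higher in labelled upper in 7 of 8 individuals (0.31 ± 0.06), at 82.1 to 99.97 CPM, against 58.3 to 84.0 CPM in labelled lower, though it was not called in individuals 1, 3, 5 and 7 alone (0.28, edgeR adjusted p 0.101). Col18a1, the precursor of endostatin and the more abundant multiplexin, had its lowest, median and highest values at 377.7, 399 and 455.3 CPM in labelled upper and 398.6, 428.8 and 512.1 CPM in labelled lower libraries (−0.08 ± 0.06, not past the threshold). Col25a1, a transmembrane collagen needed by mouse motor neurons to reach muscle, was at 30.5, 31.0, 26.3, 32.0, 18.7, 26.1, 12.3 and 20.1 CPM in labelled upper and at 11.2, 15.3, 6.66, 10.5, 4.76, 14.3, 8.37 and 23.1 CPM in labelled lower libraries. All pairs but the last had labelled upper higher (1.11 ± 0.28, edgeR adjusted p 0.00632).

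Col17a1, the hemidesmosome collagen of basal epithelial cells, had its lowest, median and highest values at 120.5, 193.2 and 239.8 CPM in labelled upper and 123.1, 164.3 and 190.1 CPM in labelled lower libraries (0.25 ± 0.12, edgeR adjusted p 0.117). It was called with the embryo as a block (0.25, edgeR adjusted p 0.021) and without individual 1 (0.31, 0.0452). The transmembrane genes Col13a1 (0.14 ± 0.17) and Col23a1 (0.09 ± 0.15) and the short chain genes Col8a1 (−0.23 ± 0.19) and Col8a2 (−0.15 ± 0.11), collagens of the corneal Descemet membrane, did not pass the test. Col8a2 had 194.2, 276.9 and 339.8 CPM in labelled upper and 271.9, 301.5 and 361.1 CPM in labelled lower libraries, and was called in individuals 1, 3, 5 and 7 alone (−0.32, edgeR adjusted p 0.0303). Col7a1, the anchoring fibril collagen that ties epithelial basement membrane to the tissue beneath, was lower in labelled upper in 8 of 8 individuals (−0.26 ± 0.07, edgeR adjusted p 0.014), with 217.8, 342.4 and 441.6 CPM in labelled upper and 342.6, 408.5 and 446.2 CPM in labelled lower libraries. In individuals 1, 3, 5 and 7 alone Col7a1 was not called (−0.25, edgeR adjusted p 0.118).

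The second comparison followed each label across its 8 labelled stages as a slope per labelled embryonic day. In labelled upper libraries 7 of the 34 collagens rose and none fell by edgeR's quasi-likelihood test (Benjamini-Hochberg adjusted over all genes tested), beside 6.13% of all genes tested, 3.72% rising and 2.41% falling. At an unadjusted p under 0.05, 3 had a negative slope, and DESeq2 called 2 as falling. The FACIT genes Col19a1 (0.94 ± 0.16 on the log2 scale per day, edgeR adjusted p 0.013), Col14a1 (0.61 ± 0.08, 0.00531) and Col20a1 (0.36 ± 0.09, 0.0449) rose. So did the fibrillar genes Col5a3 (0.62 ± 0.08, 0.00531) and Col3a1 (0.20 ± 0.04), with Col8a1 (0.31 ± 0.06) and Col7a1 (0.27 ± 0.05). Over the 3.5 labelled days these slopes amount to 9.79-fold for Col19a1, 4.51-fold for Col5a3 and 4.40-fold for Col14a1. Of 8 skeletal muscle markers, 7 rose in the same libraries, as did 3 of 8 pericyte and smooth muscle markers, and the part of these tissues in the collagen slopes was not tested.

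Leaving out single libraries changed calls more than slopes, and did so over all genes: 999 genes were called with all 8 libraries, 201 without individual 1 and 192 without individual 8. Without individual 8 the calls of Col19a1 (0.84, edgeR adjusted p 0.0988), Col20a1 (0.32, 0.193), Col3a1 (0.17, 0.117), Col7a1 (0.29, 0.0619) and Col8a1 (0.33, 0.0733) were lost. Without individual 1 those of Col19a1 (1.005, 0.0546), Col20a1 (0.46, 0.0842) and Col7a1 (0.24, 0.095) were lost, and without individual 2 that of Col3a1 (0.18, 0.0623). Col20a1 was also lost without individual 2 (0.36, edgeR adjusted p 0.11), 4 (0.36, 0.0652), 5 (0.36, 0.0602) or 6 (0.34, 0.0809). Leaving out individual 7 added Col12a1 (0.28, 0.032), Col16a1 (0.32, 0.0329) and Col6a5 (0.90, 0.0478), and leaving out 5 added Col4a5 (0.13, 0.0401). Col14a1 and Col5a3 passed in each of these fits. Individuals 1, 3, 5 and 7 alone gave 4 calls, 2 rising and 2 falling (Col13a1 and Col25a1), beside 1.97% of all genes. Individuals 2, 4, 6 and 8 alone gave 8, 7 rising and 1 falling (Col22a1), beside 3.30% of all genes. Col14a1 and Col5a3 rose in both subsets. The first 4 stages and the last 4 of each label were run in different lanes, so lane and the early or late part of the series cannot be told apart. With lane as a term edgeR called none of the slopes in labelled upper, with 5 at an unadjusted p under 0.05, and called 2 of all 16287 genes (0.0123%). The slope of Col14a1 was 0.78 ± 0.16 (edgeR adjusted p 0.222) and that of Col5a3 0.48 ± 0.16 (0.365).

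In labelled lower libraries 5 collagens rose and 2 fell by edgeR's quasi-likelihood test (Benjamini-Hochberg adjusted over all genes tested), beside 4.11% of all genes tested, 2.63% rising and 1.49% falling. Col6a5 (0.61 ± 0.10 per day), Col19a1 (0.59 ± 0.13), Col12a1 (0.24 ± 0.04), Col5a3 (0.22 ± 0.03) and Col7a1 (0.12 ± 0.02) rose. Over the 3.5 labelled days that was 4.40-fold for Col6a5, 4.18-fold for Col19a1 and 1.69-fold for Col5a3. The genes that fell were the pair on chromosome X, Col4a6 (−0.32 ± 0.04, edgeR adjusted p 0.00737) and Col4a5 (−0.19 ± 0.03, 0.0235). Col19a1, Col5a3 and Col7a1 rose in both labels.

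Leaving out the first or the last labelled lower library removed most of these calls, as it did over all genes, where 670 calls became 34 without individual 1 and 77 without individual 8. Col12a1, Col19a1, Col4a5, Col5a3, Col6a5 and Col7a1 were lost without individual 1 (slopes 0.24, 0.54, −0.13, 0.20, 0.57 and 0.13, edgeR adjusted p 0.112, 0.169, 0.126, 0.0791, 0.11 and 0.0791). The same 6 were lost without individual 8 (0.21, 0.65, −0.17, 0.21, 0.68 and 0.13, edgeR adjusted p 0.131, 0.13, 0.123, 0.0747, 0.0659 and 0.0552). Without individual 7 the calls of Col12a1 (0.23, 0.0693), Col19a1 (0.62, 0.0838) and Col4a5 (−0.19, 0.0606) were lost, and Col19a1 was also lost without individual 2 (0.47, 0.065), 4 (0.60, 0.0573) or 6 (0.60, 0.0637). Leaving out individual 5 added Col14a1 (0.40, 0.0493) and Col27a1 (0.23, 0.0459). Col4a6 passed in each fit with 1 library left out. Individuals 1, 3, 5 and 7 alone gave 3 calls, all rising, beside 0.939% of all genes: Col6a5, Col22a1 and Col27a1. There Col4a6 was not called (−0.36, edgeR adjusted p 0.0552). Individuals 2, 4, 6 and 8 alone gave 4 calls, beside 1.65% of all genes. The same 3 genes rose and Col4a6 fell (−0.25, edgeR adjusted p 0.0437). With lane as a term Col5a3 alone was called (0.34 ± 0.04, edgeR adjusted p 0.0435), beside 0.117% of all genes, and Col4a6 had −0.41 ± 0.08 (0.0862).

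**Figure D3:**
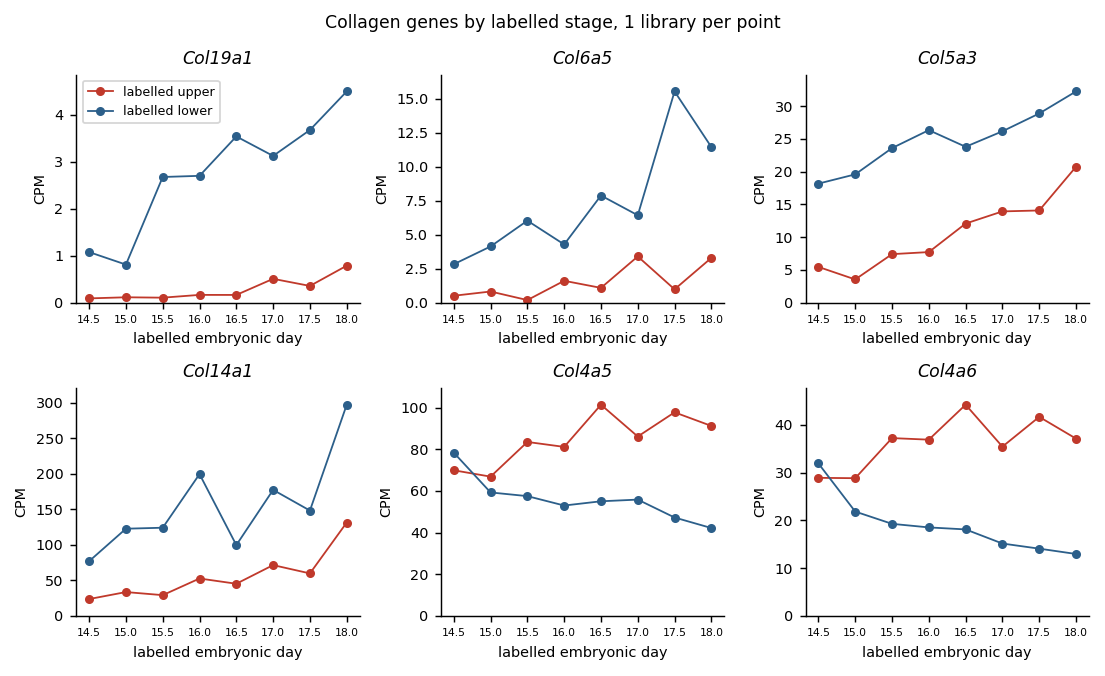
CPM of 6 collagen genes by labelled embryonic day, 1 library per point (red, labelled upper; blue, labelled lower). Col19a1 runs from 0.0882 to 0.784 CPM in labelled upper and from 0.808 to 4.49 CPM in labelled lower libraries, and the lines of Col4a5 and Col4a6 cross between the first and second stage.

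The third comparison asked whether the slope differed between the labels. By edgeR's quasi-likelihood test (Benjamini-Hochberg adjusted over all genes tested) it did for 2 of 34 collagens, beside 1.28% of all genes tested, 0.682% with the higher slope in labelled upper. They were Col4a6, with a slope higher by 0.44 ± 0.07 per day in labelled upper (adjusted p 0.01), and Col4a5, higher by 0.33 ± 0.05 (adjusted p 0.00886). In labelled upper Col4a5 had a slope of 0.14 ± 0.04 and Col4a6 of 0.12 ± 0.05, neither past the threshold, while both fell in labelled lower. Without individual 1 the values were 0.34 for Col4a6 and 0.27 for Col4a5 (edgeR adjusted p 0.0886 and 0.098), and no collagen was called, with 10 at an unadjusted p under 0.05. In that fit 14 of all genes were called, 0.086%, against 209 with all individuals. Without individual 8 Col4a5 was lost (0.35, 0.0577) and Col4a6 was not. Without individual 4 Col24a1 was added (−0.59, 0.0477). In individuals 1, 3, 5 and 7 alone both were called (0.54 for Col4a6 and 0.39 for Col4a5, edgeR adjusted p 0.0388 each), and in 2, 4, 6 and 8 alone neither was (0.35 and 0.27, 0.0604 and 0.102). Individuals 1, 3, 5 and 7 added Col27a1, and the 4 genes called in 2, 4, 6 and 8 were Col22a1, Col3a1, Col5a3 and Col8a1. Of all genes, 0.804% were called in the first subset and 0.418% in the second. With the embryo as a block 5 were called, beside 2.92% of all genes. The block added Col24a1 (−0.59, edgeR adjusted p 0.0194), Col3a1 (0.22, 0.0338) and Col5a3 (0.42, 0.0352).

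Chains of one collagen family, and the neighbouring fibrillar genes Col3a1 and Col5a2, were next compared as ratios of CPM per kb within each library, in 7 pairs tested by an exact two-sided sign-flip permutation over the 8 labelled pairs, which cannot give a p below 0.00781. The ratio of Col4a1 to Col4a2 was 1.34 to 1.55 in labelled upper and 1.42 to 1.49 in labelled lower libraries, and the labels overlapped (exact p 0.391, adjusted over the 7 ratios 0.456). Both genes differed between the labels while their ratio did not separate them. The ratio of Col4a5 to Col4a6 was 2.61 to 2.92 in labelled upper and 2.92 to 4.38 in labelled lower libraries, lower in labelled upper in 8 of 8 pairs. That of Col6a1 to Col6a2 was 1.36 to 1.78 in labelled upper and 1.67 to 1.96 in labelled lower libraries, also lower in labelled upper in 8 of 8. That of Col6a3 to Col6a1 was 0.601 to 0.683 in labelled upper and 0.411 to 0.577 in labelled lower libraries, higher in labelled upper in 8 of 8 with no overlap. Each of these 3 ratios had the smallest exact p the pairs allow, 0.00781 (adjusted 0.0182). Ratios outside the 7 pairs were not computed, and 36.2% of all genes tested differed between the labels by edgeR. A ratio largely restates the gap between the log2 differences of its genes, as with 0.61 for Col4a5 and 0.98 for Col4a6.

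The ratio of Col5a1 to Col5a2 averaged 1.14 ± 0.11 in labelled upper and 1.05 ± 0.07 in labelled lower libraries (SD, n = 8 each; exact permutation p 0.0391, adjusted 0.0684). That of Col3a1 to Col5a2 averaged 3.81 ± 0.57 in labelled upper and 4.26 ± 0.37 in labelled lower libraries (exact p 0.18, adjusted 0.252). That of Col8a1 to Col8a2 averaged 0.211 ± 0.079 in labelled upper and 0.209 ± 0.049 in labelled lower libraries (exact p 0.883). Exon lengths came from the annotation, so a ratio is comparable between libraries but is no count of chains.

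**Figure D4:**
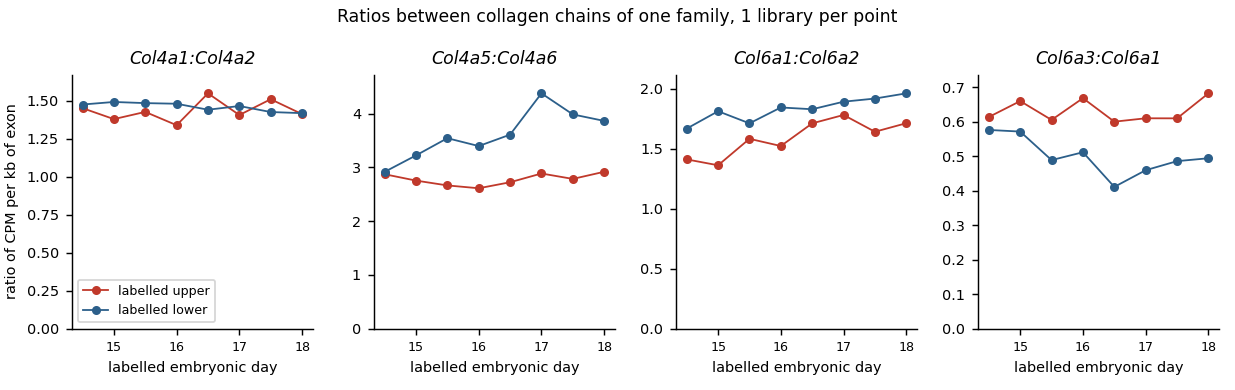
Ratios of CPM per kb of exon between chains of one collagen family by labelled embryonic day, 1 library per point (red, labelled upper; blue, labelled lower). Col4a1 to Col4a2 lies between 1.34 and 1.55 in all libraries, and Col6a3 to Col6a1 lies at 0.601 or above in labelled upper and at 0.577 or below in labelled lower libraries.

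The alternation seen in Pou3f3 ran through part of the collagen set. Over the 14 steps between successive individuals, 7 in each label, 8 of the 34 collagens moved in the direction of Pou3f3 every time, beside 4.53% of all genes tested, and 2 moved against it every time, beside 2.74%. Those that followed it were Col6a1, Col6a2, Col6a3 and Col6a6 of the beaded filaments, the FACIT gene Col16a1, the fibrillar gene Col5a1 and the transmembrane genes Col23a1 and Col25a1. Those that opposed it were Col13a1, a transmembrane collagen of cell contacts, and Col17a1. In 5 of the 34 the libraries of individuals 2, 4, 6 and 8 lay above those of 1, 3, 5 and 7 without overlap in both labels, beside 1.8% of all genes tested, and in 1, Col13a1, below them, beside 0.528%.

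Col23a1 was at 143.9 to 201.8 CPM in individuals 2, 4, 6 and 8 and at 114 to 123.3 CPM in 1, 3, 5 and 7 of labelled upper. In labelled lower it was at 151.9 to 172.8 CPM in 2, 4, 6 and 8 and 108.8 to 131.9 CPM in 1, 3, 5 and 7. Col13a1 was at 13.9 to 20.7 CPM in individuals 2, 4, 6 and 8 and at 23.9 to 39.6 CPM in 1, 3, 5 and 7 of labelled upper, and at 15.97 to 18.8 CPM and 21.2 to 26.1 CPM in the same sets of labelled lower. Neither gene's groups of individuals overlapped in either label. Dental mesenchyme markers, summed over 9 genes, rose and fell with Pou3f3 at 7 of 7 steps in each label, at 2640.5 to 2960.3 CPM in individuals 2, 4, 6 and 8 of labelled upper, against 2181 to 2557 CPM in 1, 3, 5 and 7. In labelled lower these sums were 1825 to 2346 CPM in 2, 4, 6 and 8 and 1425 to 1924 CPM in 1, 3, 5 and 7. Not every gene of the list went with the sum. In labelled upper Pax9 and Twist1 moved against Pou3f3 at every step, though in labelled lower they moved with it. Pax9 was at 130.5 to 135.6 CPM in 2, 4, 6 and 8 of labelled upper, against 137.7 to 144.1 CPM in 1, 3, 5 and 7. Dental epithelium markers, summed over 10 genes, went against Pou3f3 at 7 of 7 steps in each label, at 4112 to 5146 CPM in individuals 2, 4, 6 and 8 of labelled upper, against 5328 to 6743 CPM in 1, 3, 5 and 7. In labelled lower they were at 4939.7 to 5582 CPM in 2, 4, 6 and 8 and 5869 to 6737 CPM in 1, 3, 5 and 7. Their part in the alternation of the collagens was not tested. No listed marker of either tissue was at 0 in all libraries.

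**Figure D5:**
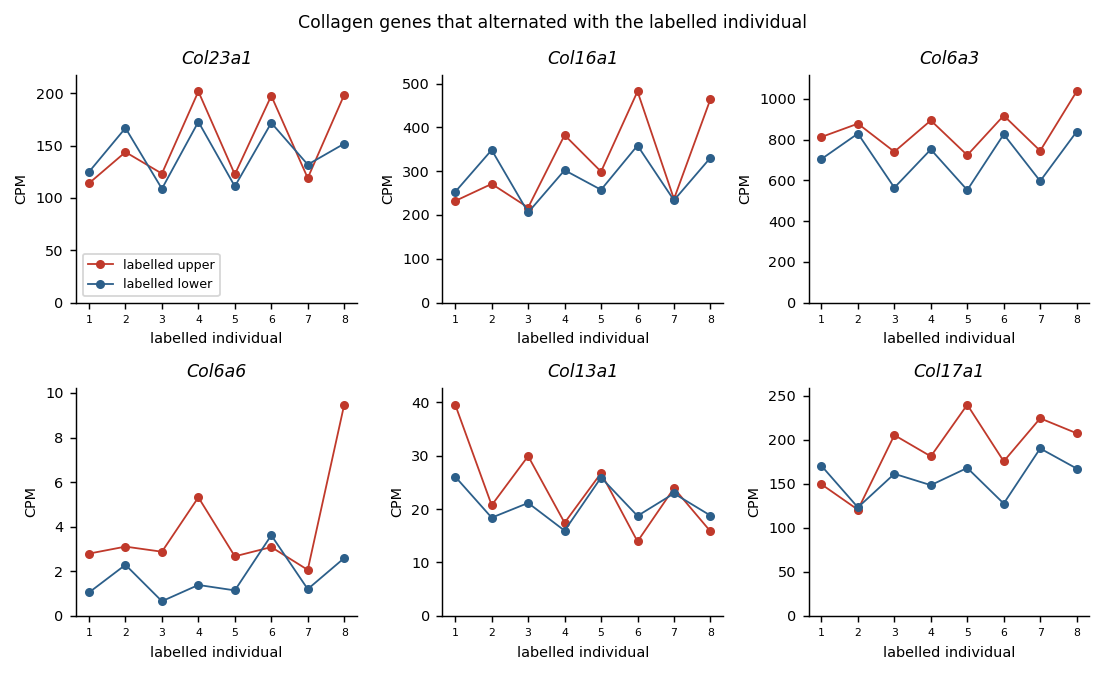
CPM of 6 collagen genes by labelled individual, 1 library per point (red, labelled upper; blue, labelled lower). Col23a1, Col16a1, Col6a3 and Col6a6 are higher in individuals 2, 4, 6 and 8 than in their neighbours and Col13a1 and Col17a1 are lower; Col23a1 reaches 143.9 to 201.8 CPM in those individuals of labelled upper.

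Genes that make and process collagen were listed apart from the collagens: hydroxylases, chaperones, propeptidases and crosslinking enzymes. Of 31 tested, 6 were higher and 8 lower in labelled upper by edgeR's quasi-likelihood test (Benjamini-Hochberg adjusted over all genes tested), beside 18.1% of all genes in each direction, with a median log2 difference of −0.10 beside 0.01 for all genes. Adamts3, a procollagen amino-propeptidase, was at 11.1 to 16.99 CPM in labelled upper and 19.7 to 44.9 CPM in labelled lower libraries, with no overlap (−1.19 ± 0.11, edgeR adjusted p 3.03e-06). Loxl4, of the lysyl oxidase family that crosslinks collagen, was at 5.31 to 12.1 CPM in labelled upper and 2.62 to 4.73 CPM in labelled lower libraries, also with no overlap (1.18 ± 0.13, edgeR adjusted p 1.5e-05). P4ha3, a prolyl hydroxylase subunit (0.94 ± 0.26), and Loxl1 (0.86 ± 0.14) were higher in labelled upper. Across stages Tll1, a tolloid protease (0.33 per day), rose in labelled upper, beside 3.72% of all genes. In labelled lower 5 rose, beside 2.63% of all genes, with P4ha2 (0.24), Pcolce (0.21), P4ha1 (0.15) and the lysyl hydroxylase Plod1 (0.13) in front. By edgeR no gene of the list differed in slope between the labels, with 7 at an unadjusted p under 0.05, and DESeq2 called 1.

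Of 17 collagen receptor and partner genes tested, 2 were higher and 7 lower in labelled upper by the same edgeR test, beside 18.1% of all genes in each direction. The integrin chains Itga1 (−1.53 ± 0.17) and Itga2 (−1.40 ± 0.10), receptors for collagen on the cell surface, stood at 6.86 to 19.4 and 9.54 to 23.4 CPM in labelled upper, against 19.1 to 46.1 and 29.7 to 52.4 CPM in labelled lower libraries. Itga2 had no overlap, and Itga1 overlapped by 1 labelled lower library. Fmod (0.80 ± 0.26) and Dcn (0.67 ± 0.14), which encode small proteoglycans that bind fibrils, were higher in labelled upper; Dcn was named after its value was seen. Tnxb, a tenascin that binds fibrils, was lower in labelled upper (−0.74 ± 0.23), at 0.206 to 1.19 CPM, against 0.853 to 2.42 CPM in labelled lower. Itga1 (0.41 per day), Itga2 (0.40) and Sparc (0.17), whose product binds collagen, rose with stage in labelled upper. Itga2 (0.19), Mrc2 (0.14), an endocytic collagen receptor, and Nid1 (0.14), a basement membrane linker, rose in labelled lower. Of all genes tested, 3.72% rose in labelled upper and 2.63% in labelled lower. Slopes of both lists come from the full fits, and their values in the other fits are not given. With lane as a term only 2 of all genes were called in labelled upper and 19 in labelled lower. Without individual 1 these counts were 201 and 34.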

How the data were processed

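Poly(A) RNA was sequenced from 16 molar germ libraries, 8 labelled upper and 8 labelled lower. The authors deposited whole-number counts per gene, unnormalized. Bowtie2 2.0.2, TopHat2 2.0.6, HTSeq 0.5.3p9 and build mm10 are named per the submitters' processing notes. Their gene annotation, their strand option and the unit counted (reads or pairs) are not given in the sources used. The TruSeq V2 kit named in the labels' protocols does not mark strand, so counts of overlapping or antisense genes could mix. The 5 summary lines per table were kept out.

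From the deposited counts, CPM was computed on library gene totals. Genes with at least 2 libraries at 0.269 CPM (10 counts at the median depth) entered edgeR 4.0.16 under R 4.3.3 (TMM, quasi-likelihood F test, Benjamini-Hochberg over 16287 genes, threshold 0.05), checked on simulated data. The tooth difference and the slope difference used all 16 libraries with a natural spline of stage (3 degrees of freedom); each stage trend used 8 libraries. DESeq2 1.42.0 was an alternative, as were other size factors, no filter, each individual left out, an embryo block, a lane term and subsets of individuals. Fits on subsets used a straight line of stage in place of the spline, so they differ from the full fit in model as well as libraries. The standard error is the log2 value divided by the square root of F. Exon lengths, IDs and coordinates came from GENCODE M21 (GRCm38), which held all 36 genes.

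The labels give same-numbered upper and lower libraries as one embryo. Their deviations from a straight stage line in each label were correlated (r 0.13 to 0.366 in all 8 pairs). Libraries of different numbers were not compared. Same-numbered libraries also share the alternation of individuals, so these values cannot show a shared embryo. Lowest, median and highest values were printed for the gene with the highest CPM in each structural class. Values in single libraries were printed, per comparison, for the 3 largest changes in each direction past the threshold. Col12a1, which met both rules, was given by lowest, median and highest value. Neighbouring collagen pairs were set side by side, and other members were given more briefly. Col23a1 and Col13a1 were picked as examples of the alternation after their values were seen. The genes, lists and tests were chosen with earlier results of these data known. The ratios of chains and the count of steps with Pou3f3 were added after the data were seen.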

Additional observations from a re-analysis of the deposited data

Results flagged for a closer look

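Among 70 groups of 8 libraries (35 detected collagens in each label), 5 had 1 library far from the rest by Dixon's criterion, and chance gives about 1 in 20. The last labelled upper library, at ED18.0, had Col14a1 at 131.4 CPM, against 71.4 CPM in the next library, and Col6a6 at 9.47 CPM, against 5.32 CPM. The labelled lower library of ED17.5 had Col22a1 at 65.9 CPM, against 19.3 CPM in the next. The first labelled lower library, at ED14.5, had Col4a5 at 78.4 CPM, against 59.3 CPM in the next, and Col4a6 at 31.9 CPM, against 21.8 CPM.

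The slope per embryonic day was higher in labelled upper than in labelled lower for Col4a6 by 0.44 and for Col4a5 by 0.33 on the log2 scale, by edgeR's test of the slope difference. The same first labelled lower library stands apart in both genes, and without that individual neither difference was past the threshold (0.34 and 0.27).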

How the results depend on the processing

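Other size factors and no filter on low counts kept all counts of collagens called within 1.5 times. DESeq2 called 12 collagens for the stage trend of each label and 6 for the slope difference, against 7, 7 and 2 in edgeR. Its calls rose over all genes too. It called 12.6% of all genes for the labelled upper trend, 11.1% for the labelled lower trend and 3.65% for the slope difference. In edgeR these shares were 6.13%, 4.11% and 1.28%. With lane as a term the stage trends kept 0 in labelled upper and 1 in labelled lower, beside 0.0123% and 0.117% of all genes. The replicate block (the embryo) called 5 for the slope difference; besides the genes given in the report it changed no other call. Individuals 1, 3, 5 and 7 alone gave 4 in the labelled upper trend and 3 in the labelled lower trend. The subset of 2, 4, 6 and 8 gave 4 in the labelled lower trend and 4 for the slope difference. Shares of all genes for the block and these subsets stand with their counts in the report. Leaving out 1 individual gave 14 to 17 for the tooth difference, 2 to 10 for the labelled upper trend, 1 to 9 for the labelled lower trend and 0 to 3 for the slope difference. Of 230 alternative values for the genes the naming rule picked, 188 kept their direction and side of the threshold, 42 fell short of it and 0 reversed. The mean log2 difference in the ratio of Col8a1 to Col8a2, −0.04, was not past its threshold and ran from −0.21 to 0.14 with 1 individual left out, changing sign without individual 1 (0.04), 2 (0.14) or 4 (0.08). Depth limits the rarest genes: Col19a1 had 3 to 26 counts per labelled upper library.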

Other observations

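On a log scale of CPM, the labelled upper library of ED18.0 was set against the labelled lower libraries of ED14.5 and ED18.0. It was nearer to that of ED14.5 in 9 of the 16 collagens called in the tooth difference, beside 66.9% of all called genes (3951 of 5902). The collagens left out by the rule, mostly Col1a1 and Col1a2, took 2979 to 6182 CPM in labelled upper and 3664 to 6013 CPM in labelled lower libraries, beside 9500.5 to 13202 CPM in labelled upper and 10079 to 12848 CPM in labelled lower libraries for the 36 genes described.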
